A study of Mus musculus with 3 samples.

Results

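The genes described here encode the mRNA decay machinery of the cell. They comprise 46 mouse genes, chosen by name, from 8 groups: the CCR4-NOT deadenylase complex, the BTG/TOB adaptors, the PAN2-PAN3 deadenylase, the decapping factors, the 5′-to-3′ exonucleases, nonsense-mediated decay (NMD), the sequence-specific RNA-binding proteins that mark mRNAs for decay or stability, and the Argonaute and GW182 proteins of microRNA silencing. In the deposited list of predicted m6A sites of RAW 264.7 cells, 113 of 19301 sites (0.585%) lay inside the spans of these genes on the gene's strand, and 32 of the 46 genes had at least 1 site. Over all 21951 annotated protein-coding genes, 5080 (23.1%) had at least 1 site. The list carries no expression values, so genes that were silent in these cells are counted among those without a site.

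Cytoplasmic mRNA decay usually starts with shortening of the poly(A) tail by PAN2-PAN3 and CCR4-NOT, followed by removal of the cap and digestion of the body of the mRNA from its 5′ end. Adaptors bring these enzymes to chosen transcripts: TTP-family proteins bind AU-rich elements, GW182 proteins connect Argonaute-bound microRNAs to the deadenylases, and UPF and SMG proteins act on mRNAs whose translation ends too early. N6-methyladenosine (m6A) is itself a mark that shortens the life of many mRNAs, since YTHDF reader proteins recruit CCR4-NOT to it.

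RAW 264.7 is an established mouse macrophage line. All 3 samples were biological replicates of the same state, untreated cells, and each library came from 1 µg of fragmented poly(A)+ RNA crosslinked to a rabbit anti-m6A antibody and preamplified for 6 cycles. The series' design text calls the line human, whereas the organism label says mouse, and all 19301 listed positions fell on an A of the mouse genome. Of 8 macrophage markers, 4 (50%, against 23.1% of all protein-coding genes) had a listed site: Csf1r with 11, Spi1 and Fcgr1 with 6 each and Lyz2 with 2. Adgre1, Cd68, Itgam and Mrc1 had none. A site is a position where m6Aboost, a classifier trained on miCLIP2 peaks, gave a score above 0.5. The score describes the model's call and is not a methylation level. The replicates were pooled into 1 list without read counts, so neither the reads behind a site nor its variation over the replicates is known, no test between conditions or replicates could be made, and values for all other protein-coding genes are given only as a description. The 95% Wilson intervals below cover counting error only, and sites of the same mRNA are not independent.

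Of the 113 sites, 6 in 6 different genes scored at least 0.9 (5.31%, against 8.90% of 19922 site placements in all other protein-coding genes). Their windows are shown because they are the strongest calls among the decay factors. Each window spans 21 nt of GRCm38, is written 5′ to 3′ on the gene's strand, and has in capitals the 5 bases centred on the predicted m6A.
Cnot9, 3′ UTR, chr1:74528949-74528969, plus strand, score 0.981: tcagtgctGAACTgtactgga
Pan2, CDS, chr10:128304206-128304226, plus strand, score 0.959: atcgtcatGAACTttgagggt
Tob2, 3′ UTR, chr15:81850540-81850560, minus strand, score 0.953: caagtgttGGACTcagcccct
Khsrp, 3′ UTR, chr17:57022519-57022539, minus strand, score 0.931: ggaactctGAACTgctggggt
Smg1, 3′ UTR, chr7:118134989-118135009, minus strand, score 0.911: tcagaaatGGACTgaaaaaat
Elavl1, 3′ UTR, chr8:4289268-4289288, minus strand, score 0.910: gtcactctGGACGgtggtggg
All but 1 of these windows hold GAACT or GGACT; that of Elavl1 holds GGACG, which lies outside the DRACH consensus (D is A, G or T; R is A or G; H is A, C or T). The Pan2 site was the only one of the 6 outside a 3′ UTR. It was the middle base of codon 2, so that the G of the start codon is the first base of its motif. Sites within the first 10 nt of a coding sequence were rare in the list, with 28 of 19922 placements in other genes.

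**Figure D1:**
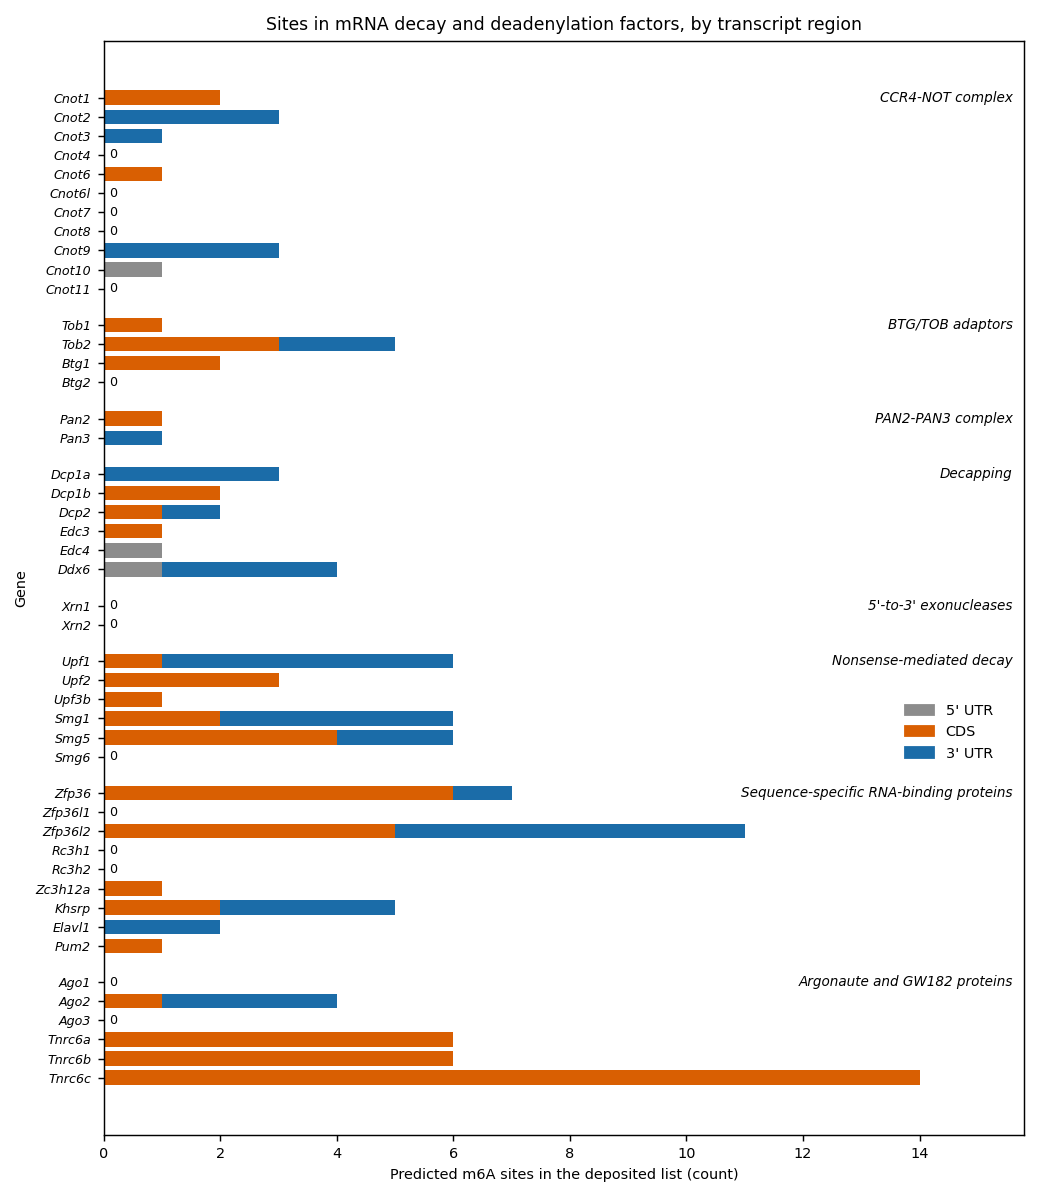
Number of predicted m6A sites in each of the 46 decay-factor genes (bars, stacked by transcript region; 0, no listed site), grouped by role. Tnrc6c has 14 sites, all in the CDS, Zfp36l2 has 11, and both exonuclease genes have none.

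Sites were unevenly spread over the genes. Tnrc6c alone had 14, Zfp36l2 had 11, Zfp36 had 7, and Upf1, Smg1, Smg5, Tnrc6a and Tnrc6b had 6 each, followed by Tob2 and Khsrp with 5. At the other end 11 genes had exactly 1 site and 14 had none. Of the 46 genes, 10 (21.7%) had 5 or more sites, against 6.98% of all protein-coding genes, and 2 (4.35%) had 10 or more, against 1.71%. Among genes with a site, the decay factors had a median of 2.5 sites, against 3 in the other genes. Their transcripts were longer, with a median spliced length of 4890.5 nt against 3078.5 nt, and their median density was 0.413 sites per kb against 0.973. Of the A residues at DRACH in the transcripts with a site, 105 of 3697 (2.84%) were listed in the decay factors and 4.65% in the other genes. In 3′ UTRs these were 38 of 1713 (2.22%, against 5.02%) and in coding sequences 64 of 1872 (3.42%, against 4.56%). Without Tnrc6a, Tnrc6b and Tnrc6c the shares were 38 of 1381 (2.75%) in 3′ UTRs and 38 of 1462 (2.60%) in coding sequences.

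The CCR4-NOT complex, the main cytoplasmic deadenylase, had 11 sites in 6 of its 11 genes, 7 of them in 3′ UTRs. Cnot1, the scaffold of the complex, had 2 coding sites at GGACT, in exons 21 and 31 of 49, with scores of 0.683 and 0.861. Cnot2, which with CNOT3 forms the NOT module, had 3 sites within 26 nt of its 3′ UTR, scoring 0.848, 0.713 and 0.769. Cnot9, which binds the tryptophan motifs of GW182 proteins, had its 3 sites within 22 nt, 91 to 112 nt after the stop codon (counted from its first base, here and below), and the strongest site of all decay factors was the middle of these. The sites of Cnot2 and Cnot9 thus formed tight runs in the last exon.
Cnot9, score 0.706, chr1:74528933-74528953, plus strand: ctgggaatAGACAacctcagt
Cnot9, score 0.715, chr1:74528954-74528974, plus strand: gctgaactGTACTggagaaaa
The last of these, GTACT, is not DRACH and lies 5 nt after the GAACT site, so the windows of both calls overlap. Cnot3 had 1 site (0.608), Cnot6 had 1 (0.570), and Cnot10 had 1 in its 5′ UTR (0.514). Of the 4 catalytic deadenylase genes, Cnot6, Cnot6l, Cnot7 and Cnot8, only Cnot6 was listed. Cnot4, which encodes a ubiquitin ligase, and Cnot11 had no site either.

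The BTG/TOB adaptors, antiproliferative proteins that connect CAF1-type deadenylases to RNA-bound partners, had 8 sites. Tob2 carried 5 of them in its last exon, 3 coding (0.762, 0.551 and 0.558) and 2 in the 3′ UTR (0.668 and 0.953). The third coding site, at CAACT, was the middle base of the last sense codon, 2 nt before the stop codon. Btg1 had 2 coding sites (0.790 and 0.659), Tob1 had 1 (0.606) and Btg2 had none. In the PAN2-PAN3 complex, Pan2, the catalytic subunit, had the site next to its start codon, and Pan3, the RNA-binding regulatory subunit, had 1 site in its 3′ UTR, 896 nt after the stop codon (0.590).

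Each of the 6 decapping genes had a site, 13 in all, and none had more than 4. Dcp2 encodes the decapping enzyme and had 1 coding site (0.720) and 1 3′ UTR site (0.594). The activators DCP1A and DCP1B differed in where their sites lay. Dcp1a had 3 sites, all in the 3′ UTR (0.720, 0.683 and 0.616), whereas Dcp1b had 2, both in exon 7, a coding exon of 837 nt (0.774 and 0.664). Edc3, an enhancer of decapping, had 1 coding site (0.670), and Edc4, the scaffold that holds DCP1 and DCP2 together, had 1 in its 5′ UTR (0.514). Ddx6, the RNA helicase that links CCR4-NOT to decapping, had 4 sites with scores between 0.801 and 0.895, of which 1 lay in the 5′ UTR and 3 in the 3′ UTR. Xrn1, which degrades decapped mRNA in the cytoplasm, and Xrn2, its nuclear counterpart, had no listed site.

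The NMD factors had 22 sites in 5 of 6 genes, 11 coding and 11 in 3′ UTRs. Upf1, the central RNA helicase of NMD, had 1 site in its first exon, at codon 17 (0.844), and 5 in its 3′ UTR between 361 and 767 nt from the stop codon. A pair of A residues of that 3′ UTR, 4 nt apart, were both listed.
Upf1, GGACG, score 0.823, chr8:70332114-70332134, minus strand: ttttagcaGGACGaacttcgc
Upf1, GAACT, score 0.844, chr8:70332110-70332130, minus strand: agcaggacGAACTtcgcgttt
The first of these is not DRACH, and neither is a TGAGA site further downstream (0.522). The other 3′ UTR sites of Upf1 scored 0.777 and 0.733. Smg1, the kinase that phosphorylates UPF1, had the longest run of exons of the NMD genes, 63, and 6 sites: 2 in exon 54 (0.512 and 0.565) and 4 in the 3′ UTR, with scores of 0.556, 0.828, 0.911 and 0.892. Its high-scoring sites lay in the 3′ UTR, 420 to 592 nt after the stop codon.

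Smg5, which promotes dephosphorylation and decay downstream of UPF1, had 4 sites within 109 nt of exon 12, an internal coding exon of 603 nt, and 2 in its 3′ UTR (0.696 and 0.868). The exon 12 sites are shown because all were read at the middle base of a codon and came as pairs 12 nt apart.
Smg5, codon 482, score 0.848, chr3:88351158-88351178, plus strand: tttgaatcTGACTctagccat
Smg5, codon 486, score 0.720, chr3:88351170-88351190, plus strand: tctagccaTGACTctgcccag
Smg5, codon 514, score 0.743, chr3:88351254-88351274, plus strand: gcagagacAGACTcagaaatg
Smg5, codon 518, score 0.670, chr3:88351266-88351286, plus strand: tcagaaatGAACAgccaggag
Upf2, which bridges UPF1 and UPF3, had 3 sites within 60 nt of exon 3, a coding exon of 780 nt (0.785, 0.751 and 0.568). Upf3b, which joins NMD to the exon junction complex, had 1 (0.526), and Smg6, the endonuclease of the pathway, had none.

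Among the sequence-specific RNA-binding proteins, 27 sites fell in 6 of 9 genes, and 18 of them in Zfp36 and Zfp36l2. Zfp36 encodes tristetraprolin (TTP), which binds AU-rich elements of cytokine mRNAs and recruits CCR4-NOT. It had 6 coding sites, all in exon 2, with scores of 0.671, 0.710, 0.571, 0.511, 0.844 and 0.619 in transcript order, and 1 site in the 3′ UTR, 56 nt after the stop codon (0.889). Zfp36l2, its paralog, had 5 coding and 6 3′ UTR sites, and 6 of the 11 lay within 242 nt across the stop codon. These 6 are shown in transcript order.
Zfp36l2, 131 nt before the stop codon, score 0.826, chr17:84185876-84185896, minus strand: agccccccGGACTcgctctcg
Zfp36l2, 50 nt before, score 0.862, chr17:84185795-84185815, minus strand: cccagcctGGACCctggccgt
Zfp36l2, 2 nt before, score 0.644, chr17:84185747-84185767, minus strand: atctccgaCGACTgaggcaag
Zfp36l2, 78 nt after, score 0.846, chr17:84185667-84185687, minus strand: actgcggcAGACTtggaggcc
Zfp36l2, 104 nt after, score 0.859, chr17:84185641-84185661, minus strand: gagcacttGGACTcgaactct
Zfp36l2, 110 nt after, score 0.850, chr17:84185635-84185655, minus strand: ttggactcGAACTctgccgga
All but 1 of the 6 scored above 0.8, and the lowest, at CGACT, was the only one outside DRACH. It lay in the last sense codon, as did the CAACT site of Tob2; the other genes had 125 sites there among 19922. The other coding sites of Zfp36l2, at codons 32 and 236, scored 0.586 and 0.606, and its other 3′ UTR sites scored 0.690, 0.856 and 0.583. In Zfp36l2, 10 of 47 DRACH A residues (21.3%) were listed and in Zfp36 6 of 50 (12%). At 3.12 sites per kb, Zfp36l2 was matched or exceeded by 408 genes including itself, which is 8.03% of genes with a site. The remaining family member, Zfp36l1, had 68 DRACH A residues and no listed site.

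Khsrp, another AU-rich element binder that promotes decay, had 5 sites in its last exon, 2 coding (0.842 and 0.758) and 3 in the 3′ UTR (0.931, 0.872 and 0.883), and its median of 0.872 was the highest of the 10 genes with 5 or more sites. Elavl1 encodes HuR, which binds the same class of elements and stabilises mRNAs. It had 2 sites 36 nt apart in its 3′ UTR (0.910 and 0.574). Zc3h12a, the endonuclease regnase-1, had 1 coding site (0.787) and Pum2, a Pumilio protein, had 1 (0.554). Rc3h1 and Rc3h2, which encode the roquins and hold 236 and 184 DRACH A residues, had none.

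**Figure D2:**
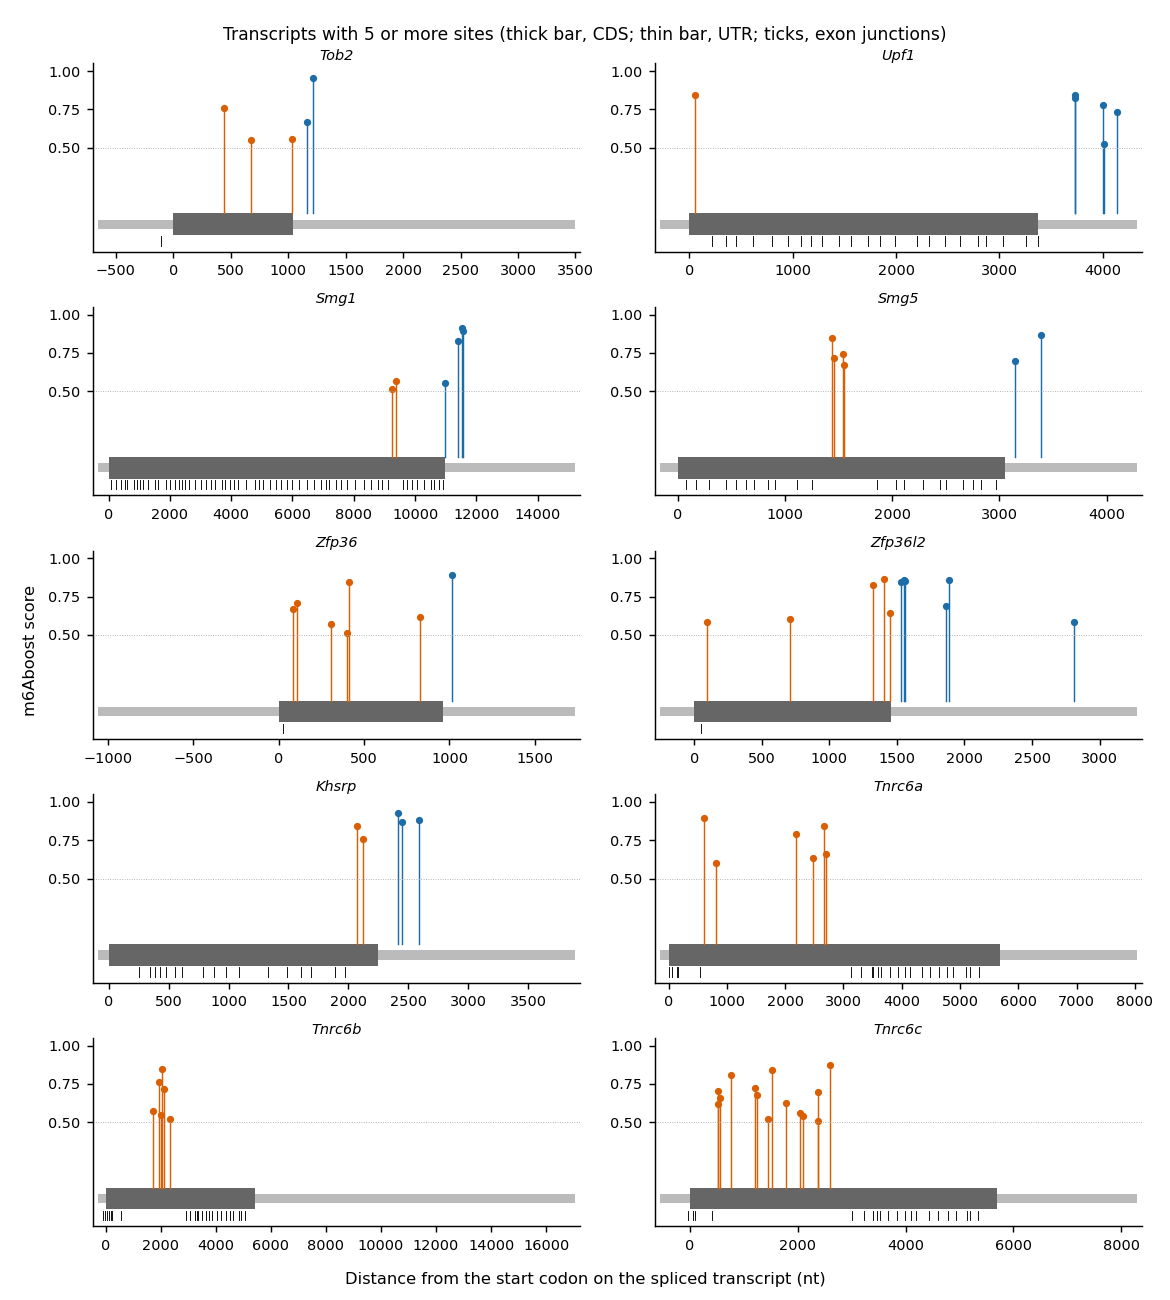
Spliced transcripts of the 10 genes with 5 or more sites. The x axis is the distance from the start codon (nt), stem height is the m6Aboost score (orange, CDS; blue, 3′ UTR) and ticks are exon junctions. In Tnrc6a, Tnrc6b and Tnrc6c all stems stand on a coding stretch without junctions. In Zfp36l2, 6 of the 11 stems lie within 242 nt across the stop codon. The stems of Khsrp stand in its last exon, on both sides of the stop codon.

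The 3 GW182 genes, Tnrc6a, Tnrc6b and Tnrc6c, carried 26 sites, 38.8% of all coding sites of the decay factors. GW182 proteins bind Argonaute through an N-terminal region rich in glycine and tryptophan and recruit PAN2-PAN3 and CCR4-NOT. Each gene has 1 long internal coding exon, and every listed site lay in it: exon 6 of 24 in Tnrc6a (2583 nt, 6 sites), exon 8 of 25 in Tnrc6b (2340 nt, 6 sites) and exon 5 of 22 in Tnrc6c (2601 nt, 14 sites). Within this exon 6 of 66 DRACH A residues (9.09%) were listed in Tnrc6a, 6 of 76 (7.89%) in Tnrc6b and 14 of 77 (18.2%) in Tnrc6c. The rest of the coding sequence held 61, 66 and 64 DRACH A residues in the same order and the 3′ UTRs 332 in all, with no listed site. The long exon makes up 43.1% to 45.6% of the coding sequence of each gene. One of the Tnrc6a sites also lay in an overlapping gene model on the same strand, Gm45846.

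Tnrc6c had the most sites of any decay factor, and 115 protein-coding genes, itself included, had at least as many. All 14 sites were at DRACH, and in transcript order they scored 0.619, 0.70, 0.656, 0.805, 0.722, 0.676, 0.523, 0.839, 0.627, 0.562, 0.543, 0.507, 0.699 and 0.873, with a median of 0.666. The 6 sites of Tnrc6b scored 0.573, 0.761, 0.544, 0.846, 0.716 and 0.521, and 4 of them lay within 155 nt. Those of Tnrc6a scored 0.893, 0.604, 0.790, 0.632, 0.844 and 0.661. Each of the 3 exons thus held sites both above and below 0.7. The Argonaute genes contrasted with their partners: Ago2, the Argonaute with slicer activity, had 1 coding site (0.521) and 3 sites within 114 nt of a 3′ UTR of 11064 nt (0.863, 0.726 and 0.897), the first of them 1317 nt after the stop codon. Ago1 and Ago3 had no site, although the Ago3 transcript holds 331 DRACH A residues.

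**Figure D3:**
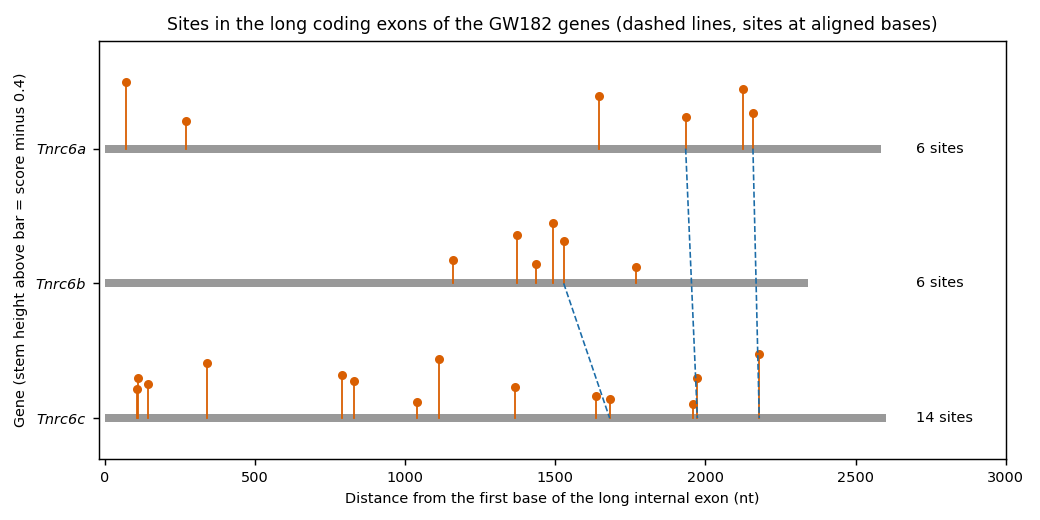
Sites along the long internal exon of Tnrc6a, Tnrc6b and Tnrc6c. The x axis is the distance from the first base of the exon (nt), stem height above each bar is the score minus 0.4, and dashed lines join sites at aligned bases. Of the 26 sites, 3 pairs align: 2 between Tnrc6a and Tnrc6c and 1 between Tnrc6b and Tnrc6c.

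Paralogs were compared by aligning their coding sequences as nucleotides, in 15 pairs within 9 families. Of 85 comparisons of a coding site with a paralog, 79 met an aligned base, and in 24 of these the paralog had DRACH at that place. In 6 of the 24, which are 3 pairs of sites seen from either side, the paralog was listed too. The pairs with both members listed were all between GW182 genes. Outside these genes, only Tob1 with Tob2 and Zfp36 with Zfp36l2 had coding sites in both paralogs, so the remaining families could share none. The best aligned of the pairs with both members listed is shown with the corresponding pair of Tnrc6b and Tnrc6c.
Tnrc6a, score 0.632, chr7:123171459-123171479, plus strand: ggggtgacGGACAaaagtcaa
Tnrc6c, score 0.699, chr11:117722912-117722932, plus strand: ggggagatGGACAaagagcaa
Tnrc6b, score 0.716, chr15:80880384-80880404, plus strand: cagaccaaGAACTcagggggc
Tnrc6c, score 0.543, chr11:117722620-117722640, plus strand: cagccttcAAACTcagggggg
The Tnrc6a and Tnrc6c windows share the motif GGACA and 16 of 21 bases. Those of Tnrc6b and Tnrc6c share 15 and differ in the motif by G9A, counted from 1 at the 5′ end of the window with the Tnrc6b base first. The remaining pair, of Tnrc6a (0.661) and Tnrc6c (0.873), lies beside an alignment gap: 12 of the 21 bases around the Tnrc6a site were aligned, with 6 identical, and all 21 around the Tnrc6c site, with 14 identical.

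Elsewhere the aligned base of the paralog was not listed. A site of the TTP family and one of the CCR4-type deadenylases, chosen after their values were seen, are shown as a case with a changed motif and a case with an unchanged motif.
Zfp36, listed, score 0.844, chr7:28378097-28378117, minus strand: acaaaacgGAACTctgccaca
Zfp36l1, not listed, chr12:80110128-80110148, minus strand: acaagacgGAGCTgtgccgca
Zfp36l2, not listed, chr17:84186607-84186627, minus strand: acaagacaGAGCTgtgccgca
Cnot6, listed, score 0.570, chr11:49677434-49677454, minus strand: acttcaagGAACTgaggtaca
Cnot6l, not listed, chr5:96080067-96080087, minus strand: acttcaagGAACTaaggtaca
At codon 137 of Zfp36 the site base is an A, and both paralogs carry A11G, so the motif is GAGCT there. Cnot6 and Cnot6l share 20 of 21 bases and the GAACT motif, but only Cnot6 was listed. Where a paralog keeps the motif and is not listed, its coverage and expression are not in the list, and their part in the difference was not tested.

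By transcript region, 67 of the 113 sites were coding (59.3%, 95% CI 50.1% to 67.9%), 43 lay in 3′ UTRs (38.1%, 29.6% to 47.3%) and 3 in 5′ UTRs (2.65%). The other protein-coding genes had 49.8% of their sites in the CDS and 42.1% in 3′ UTRs. No decay-factor site fell in an intron or outside the chosen transcript, against 6.02% in the other genes. The coding share rested on the GW182 genes: without them it was 47.1% (37.0% to 57.5%) and the 3′ UTR share 49.4%. Within 200 nt of the stop codon lay 23 sites (20.4%, 14% to 28.7%), 9 upstream and 14 downstream, against 32.3% in the other genes, and 26.4% (18.3% to 36.6%) without the GW182 genes. Sites of the 3′ UTR lay at a median of 361 nt from the stop codon, against 238 nt.

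Of the 67 coding sites, 58 (86.6%) were in a last exon or an internal exon of at least 400 nt, against 80.5% in the other genes. Without the GW182 genes 32 of 41 coding sites (78.0%, 63.3% to 88.0%) were in exons of these kinds. The division between these kinds also followed the GW182 genes. Long internal exons held 38 sites (56.7%) with them and 12 of 41 (29.3%) without, against 35.2% elsewhere, and last exons held 20 (29.9%) with them and 48.8% without. In the other genes last exons of spliced transcripts held 41.6% and transcripts with a single exon a further 3.66%, 45.3% together, which the 80.5% also counts; the decay factors had no site in a transcript of this kind. Another site lay within 100 nt on the same transcript for 64 sites (56.6%, 47.4% to 65.4%), against 60.1%.

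**Figure D4:**
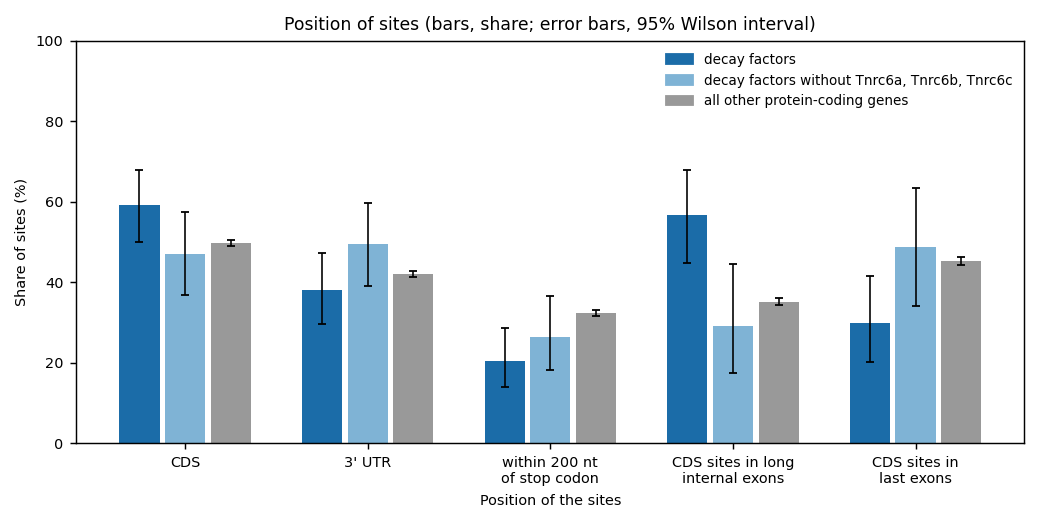
Share of sites (%, y axis) by position for all decay factors, for decay factors without Tnrc6a, Tnrc6b and Tnrc6c, and for all other protein-coding genes. Error bars are 95% Wilson intervals (counting error only); the coding share is 59.3% with and 47.1% without the GW182 genes, against 49.8%. Single-exon transcripts of the other genes count as last exons.

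The sequence under the sites was DRACH in 105 of 113 cases (92.9%, 86.6% to 96.4%), against 92.0% in the other genes. The commonest motifs were GGACT with 24 sites (21.2%, against 19.2%) and GAACT with 23 (20.4%, against 13.1%), followed by GGACA with 13, TGACT with 9 and AGACT with 8 (7.08%, against 12.3%). The 8 sites outside DRACH belonged to Upf1 (2), Tob2 (2), Cnot9, Zfp36, Zfp36l2 and Elavl1. The model reads the surrounding 21 nt and the transcript region as inputs, so shares by motif and region are in part set by the model.

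The median score was 0.716 (lowest 0.507, highest 0.981), against 0.734 in the other genes. Coding sites had a median of 0.671 and 3′ UTR sites of 0.806; in the other genes these medians were 0.699 and 0.786. Of the 3 sites in 5′ UTRs, those of Cnot10 and Edc4 both scored 0.514 and that of Ddx6 scored 0.819. The decay factors thus showed the same order of coding below 3′ UTR scores as the other genes. Since the transcript region is an input of the model, this order may also be in part set by the model.

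**Figure D5:**
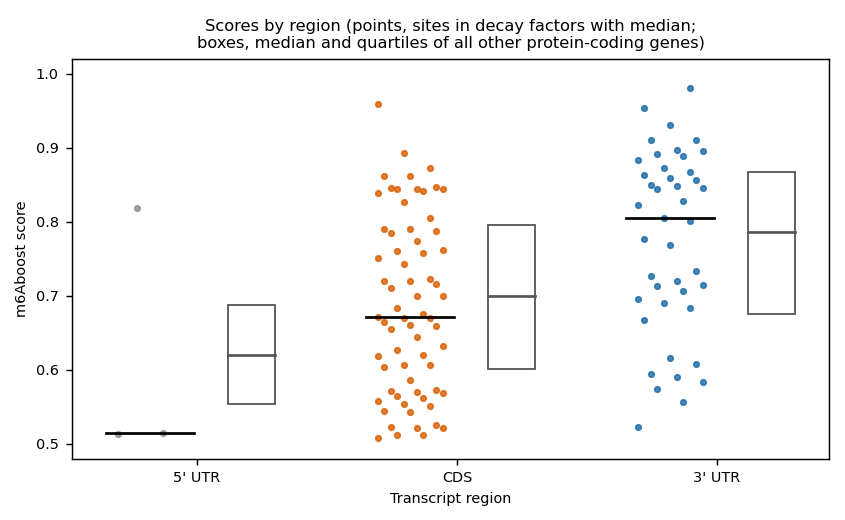
m6Aboost score (y axis) of each decay-factor site by transcript region (points; black line, median), beside the median and quartiles of all other protein-coding genes (boxes). Medians are 0.671 for 67 coding sites and 0.806 for 43 sites in 3′ UTRs, and 6 points lie at or above 0.9.

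The 14 genes without a listed site were Cnot4, Cnot6l, Cnot7, Cnot8, Cnot11, Btg2, Xrn1, Xrn2, Smg6, Zfp36l1, Rc3h1, Rc3h2, Ago1 and Ago3. Their transcripts held 39 to 331 DRACH A residues each (median 74) and 1646 in all, against a median of 99 in the 32 genes with a site. They were also shorter, with a median spliced length of 3477.5 nt against 4890.5 nt, and the part of motif number and length in having no site was not tested. Absence from the list does not show absence of m6A, since a peak needs reads and the list gives no coverage.

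Beyond these genes, 29 of 63 other mRNA decay genes (46.0%, against 23.1% of all protein-coding genes) had 76 sites in all. The most sites were in Exosc6, a subunit of the RNA exosome, with 7, Casc3, of the exon junction complex, with 6, and Tut7, a terminal uridylyltransferase, Noct, which encodes nocturnin, and Smg8, a regulator of SMG1, with 5 each; Pabpc1, the main cytoplasmic poly(A)-binding protein, and Pelo, a ribosome rescue factor, also had 5, with lower mean scores. The exosome and SKI group, the 3′-to-5′ arm of decay, had 17 sites in 5 of 16 genes (31.2%), nearer to the share of all protein-coding genes, and the further NMD and exon junction genes had 18 in 6 of 9 (66.7%). Low shares were also seen in further RNA-binding proteins (3 of 9, 33.3%), scavenger decapping (1 of 3, 33.3%) and LSM, PAT1 and P-body proteins (4 of 11, 36.4%). The other deadenylase and poly(A)-binding protein group had 6 of 10 (60%). Uridylyltransferases with Dis3l2 had 2 of 3 (66.7%), and no-go decay and ribosome rescue 2 of 2 (100%).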

How the data were processed

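Poly(A)+ RNA of untreated RAW 264.7 cells was profiled by miCLIP2 in 3 biological replicates. According to the study's methods and the submitters' processing notes, reads were mapped with STAR 2.7.3a to GRCm38.p6, deduplicated with UMI-tools 1.0.0 (SAMtools 1.9 and bedtools 2.27.1 were also used), freed of reads with C-to-T transitions, and called with PureCLIP; peaks found in at least 2 replicates that lay at A were scored by m6Aboost from the surrounding bases, the transcript region, C-to-T transitions and the peak's signal relative to its transcript. The authors deposited 1 pooled list with a score above 0.5 for each site. The study states the depth of each sample, but the list does not hold it; it was not used here, and its part in these values was not tested.

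Sites were read as 1-based positions on GRCm38 and given to every protein-coding gene of GENCODE M21 whose span held them on the same strand; the authors used a later release. They were placed on the transcript with the longest CDS, and a site in several genes counted in each. Distances are spliced, and those to the stop codon run to its first base. Wilson intervals came from SciPy 1.17.1. Since no protein sequences were used, paralogous coding sequences were aligned as nucleotides with Biopython 1.88 (global; match 2, mismatch -2, gap -8 and -1, end gap -0.5). Genome sequence was RefSeq's GRCm38.p6, read with pysam 0.24.0. The placement of positions on transcripts was tested on made-up transcripts with known answers. The member genes and lists were chosen with earlier results of these data known. For genes with 5 or more sites or a score of at least 0.9 the score of every site is given; for the others, which have at most 4 sites, scores or ranges. Alternatives were minimum scores, collapsed neighbours, other transcripts, windows, motif and exon lengths. Windows on 1 chromosome are not printed.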

Additional observations from a re-analysis of the deposited data

How the results depend on the processing

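No paired analysis was possible because there is 1 condition and the replicates were pooled, which also means that none of them could be left out. Of 76 values under alternative settings, 52 stayed within the counting interval of the reported share or within 1.5 times the reported count. At a minimum score of 0.7, 62 sites were left, with 50% in 3′ UTRs and 48.4% in the CDS, against 50.5% and 42.6% in the other genes at that score. At 0.9, 6 sites in 6 genes were left (median 1 per gene): 83.3% lay in 3′ UTRs, 16.7% in the CDS, 50% within 200 nt of the stop codon and 83.3% at DRACH, 0% had a neighbour within 100 nt, and 0% of the single coding site was in a last or long exon. In the other genes at 0.9 these shares were 68.7%, 22.4%, 41.0%, 99.2%, 14.5% and 84.9%. The single coding site, in Pan2, lay in an internal exon of 399 nt, just below the limit of 400 nt. On the longest supported transcript the coding share was 38.9%, because 28 sites of Cnot3, Cnot6, Smg1, Tnrc6b and Tnrc6c could not be placed (no transcript passed the support filter, or the longest that did was non-coding) but stayed in the total; of the 85 placed sites, 51.8% were coding. Stop codon windows of 100 and 400 nt held 9.73% and 31.0% of sites. RRACH in place of DRACH covered 80.5%, a neighbour window of 200 nt 67.3%, and exon limits of 200 and 1000 nt 97.0% and 68.7% of coding sites. With alternatives chosen after seeing the data, the shares without Tnrc6a, Tnrc6b and Tnrc6c were 49.4% in 3′ UTRs and 47.1% in the CDS. With only the highest-scoring site of each gene they were 50% in the CDS, 96.9% at DRACH and 62.5% of coding sites in last or long exons. The list gives no read counts, so the precision of a single call is unknown.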

Other observations

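Within coding sequence, 42 of the 67 decay-factor sites (62.7%) were the middle base of a codon, 17 (25.4%) the last and 8 (11.9%) the first. In the other protein-coding genes 48.8% of coding sites were at the middle base, 26.6% at the last and 24.6% at the first. Of the 8 first-base sites, 7 lay in Tnrc6a, Tnrc6b and Tnrc6c, where they made up 26.9% of 26 coding sites, and 1 in Zfp36. Without the GW182 genes the first base held 1 of 41 coding sites (2.44%), the middle base 27 (65.9%) and the last 13 (31.7%). Sites within 100 nt of an exon junction numbered 12 of 113 (10.6%), against 12.9%.

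Binding motifs of decay factors were searched on the sense strand in the 201 nt around each site in a 3′ UTR. ATTTA, the core of AU-rich elements, stood in 5 of 43 windows (11.6%, 5.07% to 24.5%), those of Dcp1a, Upf1 and Elavl1, against 11.6% in the other genes. The windows with a match in Upf1 overlapped each other, as did those in Elavl1. The longer TATTTAT, which contains ATTTA and is the preferred site of TTP, stood in 0 of 43 (0% to 8.20%), against 2.14%. The Pumilio motif TGTANATA stood in 2 (4.65%, 1.28% to 15.5%), those of Cnot2 and Ddx6, against 1.54%, which lies inside that interval. A match is a description of letters and not a binding site.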
